A study of Mus musculus with 4 samples.

Results

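The collagen chains measured in mouse gastruloids are the 44 genes whose symbol is Col, a type number, the letter a and a chain number, out of 32285 genes in the feature lists of the 4 libraries. They were sorted by the type of collagen they build into 11 chains of fibrillar collagens (types I, II, III, V, XI, XXIV and XXVII), 8 chains of basement membrane collagens (types IV, XV and XVIII) and 25 other chains. Gastruloids are aggregates of mouse embryonic stem cells (mESCs) that elongate and form derivatives of the germ layers in culture. All 4 libraries were made from the wild-type mESC line Zx1, at 4, 5, 6 and 11 days of culture, to follow how cardiac and skeletal muscle lineages arise. Every library had received an early pulse of the Wnt agonist Chiron in N2B27 medium, and bFGF, VEGF and ascorbic acid were added from day 4 and left out again before day 11, so that the last library came from gastruloids returned to N2B27 alone. Each day was 1 droplet library of cells from several pooled gastruloids of 1 line, so differences between gastruloids were not measured, and day and library cannot be told apart. No test between days or cell classes was therefore possible, and the intervals given here are 95% intervals that cover counting error only.

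Collagens are extracellular matrix proteins in which 3 chains wind into a triple helix. The helix requires glycine at the start of each repeat of 3 residues. Fibrillar collagens assemble into the fibrils of connective tissue, with types I and III as the main fibrils of soft mesenchyme, type II as the fibril of cartilage, and types V and XI as minor chains within other fibrils. Type IV collagen forms the network of basement membranes, the sheets on which epithelia and vessels rest, and type XVIII is a proteoglycan of vascular and epithelial basement membranes. The remaining chains include type VI, which makes beaded filaments around cells, fibril-associated collagens that sit on the surface of fibrils (types IX, XII, XIV and XVI), and transmembrane collagens (types XIII, XXIII and XXV).

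Fibrillar chains stood apart from the rest in their coding sequence. In every one of the 44 chains a complete coding sequence of the GENCODE vM21 annotation held runs of at least 5 repeats of 3 codons that each open with a glycine codon (GGN). The longest run spanned 216 to 344 repeats in the 11 fibrillar chains, against 30 to 66 in the 8 basement membrane chains, which carried 11 to 27 separate runs each, and 23 to 113 in the 25 other chains. The first 30 codons of the longest run of *Col3a1* and 30 codons around an interruption in *Col4a1* are shown because these were the leading fibrillar and basement membrane chains at day 11. Capitals mark the glycine codons that belong to a run. The stretches start at codon 164 of the *Col3a1* transcript ENSMUST00000087883.12 and codon 148 of the *Col4a1* transcript ENSMUST00000033898.9.
Col3a1: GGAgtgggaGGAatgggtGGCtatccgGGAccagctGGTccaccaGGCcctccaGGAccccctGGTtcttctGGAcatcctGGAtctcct
Col4a1: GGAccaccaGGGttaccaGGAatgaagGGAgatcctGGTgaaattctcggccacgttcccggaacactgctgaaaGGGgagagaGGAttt
The *Col3a1* stretch holds 10 glycine codons of its longest run with no gap, and opens that unbroken run of 344 repeats. In *Col4a1* the run stops within the stretch and starts again, and its longest run was 40 repeats among 22 runs.

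Levels are given as CPM, the UMIs of a chain (each marking 1 captured RNA molecule at its 3' end) per 1000000 UMIs of the same set of cells. With 1 tag per molecule, chain length does not enter the level. The 4 libraries held 6628 to 9584 cells and 149169498 to 236714826 UMIs as deposited, and 5254 to 7850 cells were kept. The median depth of the kept cells was 24186, 28112 and 24720.5 UMIs at days 4, 5 and 6, and 11400 UMIs at day 11, so that chains of a few CPM were read less precisely per cell on the last day. Between 5 and 23 cell barcodes were shared by any pair of libraries, which is at most 0.295% of the smaller one.

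Cells were classed by 6 key genes: *Twist1* (a mesenchymal transcription factor), *Wt1* (mesothelium and epicardium), *Cdh5* (VE-cadherin of endothelium), *Epcam* (epithelia), *Sox2* (pluripotent and neural cells) and *Myl7* (atrial myosin light chain of cardiomyocytes). A cell was high for a gene at 2 or more UMIs and at least 100 CPM of it (2000 CPM for *Myl7*), and it entered a class only if it was high for exactly 1 of the 6. This left out 293, 335, 617 and 407 cells high for 2 or more at days 4, 5, 6 and 11. At day 6 the classes held 226 of 508 cells high for *Wt1* and 270 of 504 high for *Myl7*. At day 4 the class held 202 of 452 cells high for *Sox2*. Sets of under 50 cells are not given values, which left *Twist1*-high, *Epcam*-high and *Sox2*-high cells at days 4 and 5, all 6 classes at day 6, and all but *Epcam*-high cells at day 11. Class sizes at day 6 were 2051 *Twist1*-high, 226 *Wt1*-high, 310 *Cdh5*-high, 149 *Epcam*-high, 354 *Sox2*-high and 270 *Myl7*-high cells. At day 11 they were 1859 *Twist1*-high, 271 *Wt1*-high, 254 *Cdh5*-high, 562 *Sox2*-high and 1223 *Myl7*-high cells, with 3243 cells high for none of the 6. Against other markers, 9 of 9 endothelial markers were at least 2-fold higher in *Cdh5*-high cells and 8 of 8 cardiomyocyte markers in *Myl7*-high cells on both days, and 8 of 8 epithelial markers in *Epcam*-high cells at days 4, 5 and 6. *Sox2*-high cells carried pluripotency markers at days 4 and 5 (5 of 6 at least 2-fold higher) and neural markers at days 6 and 11 (7 of 7), so their collagen values before day 6 and from day 6 on describe different cells. The labels of the other mesodermal classes were weaker. Only 2 or 3 of 8 mesenchyme markers were 2-fold higher in *Twist1*-high cells, and 2 or 3 of 9 mesothelial markers in *Wt1*-high cells, so both are named by their key gene alone.

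RNA carried over between droplets was gauged in a cell type that should lack most collagens. At day 11, 61 cells with at least 2 UMIs of *Tyrobp* (a signalling adaptor of myeloid cells) had 5 of 5 myeloid markers at least 2-fold higher. Their fibrillar chains summed to 91.9 CPM (77.7 to 108), their basement membrane chains to 63.5 CPM (51.9 to 77) and their other chains to 29 CPM (21.3 to 38.5). *Col3a1* led in them at 61.1 CPM (49.6 to 74.3). Values of the classes at or below these levels are not read as expression. Most of the *Tyrobp*-positive cells had no *Col3a1* UMI, as the shares given below show. Their *Col3a1* level is therefore not an even background over droplets, and a lower value does not show that a class lacks the chain.

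Summed over all kept cells, fibrillar chains moved from the smallest of the 3 collagen classes to the largest. They stood at 22.5 CPM (21.8 to 23.1), 23.5 CPM (22.8 to 24.1), 165 CPM (163 to 167) and 847 CPM (842 to 852) on the 4 days in turn. The sum was 1.04-fold (1 to 1.09) over the first step, then 7.03-fold (6.81 to 7.25) higher at day 6 than at day 5 and 5.14-fold (5.07 to 5.21) higher at day 11 than at day 6. Basement membrane chains summed to 106, 157, 244 and 285 CPM on the 4 days, the last step being 1.17-fold (1.15 to 1.19). The other chains summed to 52.4, 45.2, 137 and 337 CPM. All collagen together was 8.14-fold (8.04 to 8.23) higher at day 11 than at day 4. Fibrillar chains made up 30.2% of collagen UMIs at day 6 and 57.6% at day 11, while basement membrane chains passed from 44.6% to 19.4%.

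**Figure D1:**
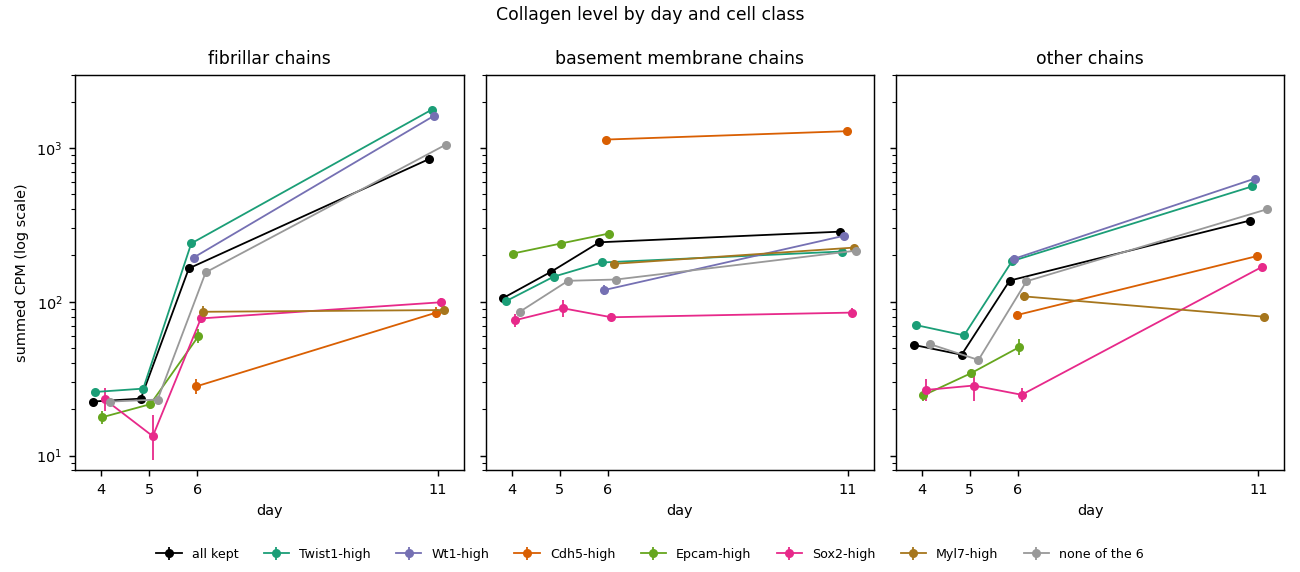
Summed CPM (log axis) of fibrillar, basement membrane and other chains by day, for all kept cells, the 6 cell classes and the cells high for none of the 6, with 95% Poisson intervals as bars. The fibrillar lines of *Twist1*-high and *Wt1*-high cells end at 1769.5 and 1616 CPM, far above *Cdh5*-high, *Sox2*-high and *Myl7*-high cells at 85 to 99.2 CPM, and *Cdh5*-high cells are highest for basement membrane chains at 1134 and 1285 CPM.

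Of the 44 chains, 30 reached 5 CPM in at least 1 set of cells and 11 passed 100 CPM. The other 14 stayed under 5 CPM in every set, with maxima from 0.290 CPM (*Col28a1*) to 2.56 CPM (*Col6a5*), although each had some UMIs. They were *Col4a3*, *Col4a4*, *Col5a3*, *Col6a4*, *Col6a5*, *Col7a1*, *Col10a1*, *Col11a2*, *Col17a1*, *Col19a1*, *Col20a1*, *Col22a1*, *Col24a1* and *Col28a1*, among them the hypertrophic cartilage chain *Col10a1*, the anchoring fibril chain *Col7a1* and the kidney glomerular chains *Col4a3* and *Col4a4*. A change of level was counted where a chain reached 5 CPM in at least 1 of the compared sets and differed at least 2-fold after 1 CPM was added to both. In all kept cells, 1 of 11 chains was that much higher at day 5 than at day 4 (7.5% of all genes were). The count was 12 of 20 chains at day 6 over day 5 (12.2% of all genes) and 13 of 26 at day 11 over day 6 (10.7% of all genes). The median log2 fold change of the chains was 1.55 for day 6 over day 5 and 0.99 for day 11 over day 6, against 0.18 and 0.03 over all genes tested.

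**Figure D2:**
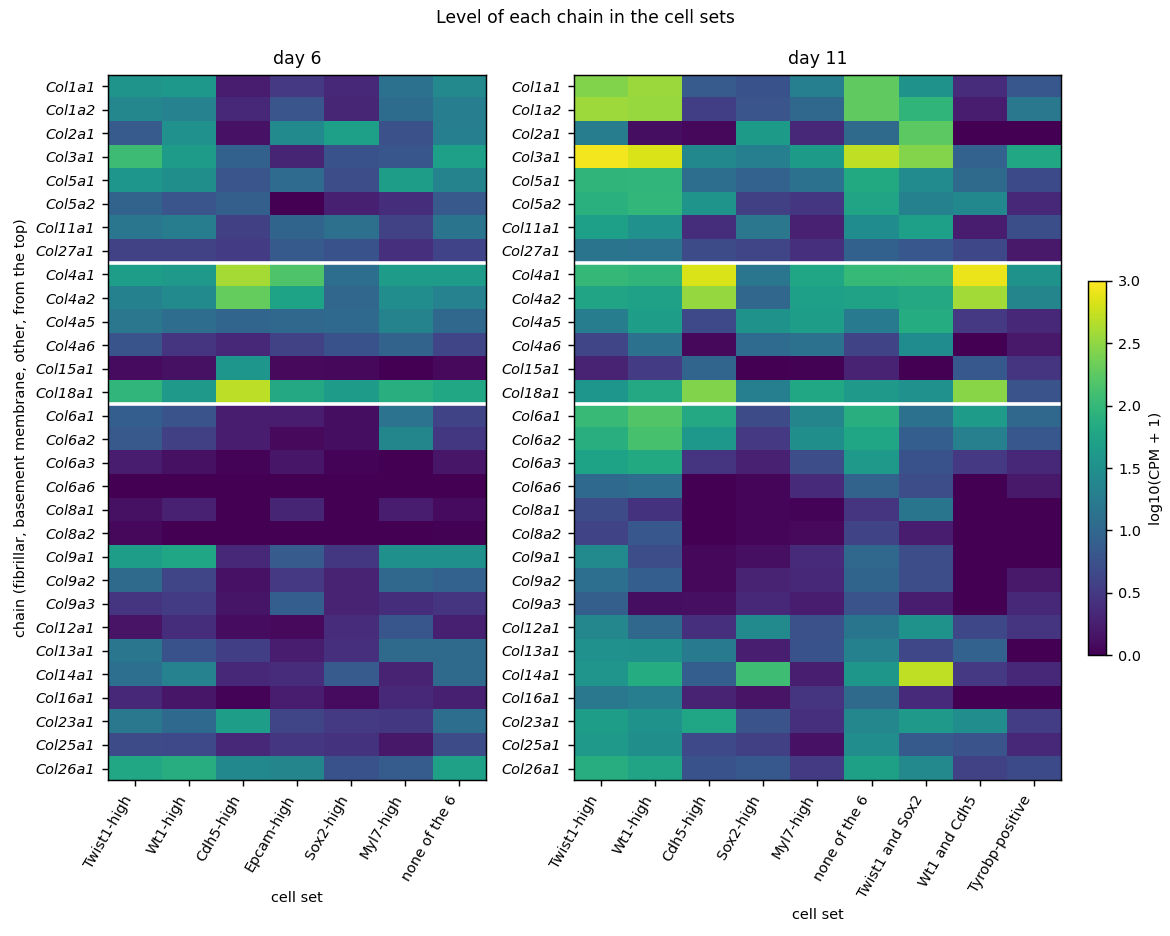
Levels of the 30 chains with at least 5 CPM in a set, as log10(CPM + 1) in colour, in each set of cells at day 6 and at day 11. At day 11 *Col3a1*, *Col1a2* and *Col1a1* are brightest in the *Twist1*-high, *Wt1*-high and unclassed columns, *Col4a1*, *Col4a2* and *Col18a1* in the *Cdh5*-high columns, and *Col14a1* in the column of cells high for *Twist1* and *Sox2*.

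The chains of the main fibrils, types I and III, were close to absent at days 4 and 5. *Col3a1*, the homotrimer chain of reticular fibres (ENSMUSG00000026043, chr1:45311538-45349706 on the forward strand of mm10), had 0.541 and 0.382 CPM on those days, 61.1 CPM (59.9 to 62.4) at day 6 and 411 CPM (407 to 415) at day 11. *Col1a1*, the chain present in 2 copies per type I molecule, had 1.24, 1.86, 25.1 and 139.5 CPM on the 4 days, and its partner *Col1a2* had 0.801, 0.74, 16.3 and 158 CPM. These 3 chains were the 3 highest of all 44 at day 11. The ratio of day 11 to day 6 was 6.73 (6.58 to 6.88) for *Col3a1*, 9.74 (9.34 to 10.2) for *Col1a2* and 5.57 (5.37 to 5.77) for *Col1a1*. The steps from day 5 to day 6 were larger in ratio, 159.8 (128 to 203) for *Col3a1*, 22 for *Col1a2* and 13.5 for *Col1a1*, since each had under 2 CPM at day 5.

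At day 11 type I and III chains were highest in *Twist1*-high and *Wt1*-high cells, of the classes high for 1 key gene. In *Twist1*-high cells *Col3a1* was at 113 CPM (110.4 to 116) at day 6 and 889 CPM (877 to 901) at day 11, *Col1a2* at 23.2 and 363 CPM, and *Col1a1* at 34.7 and 266 CPM. *Wt1*-high cells had 44.9 and 683 CPM of *Col3a1*, 20.3 and 345 CPM of *Col1a2*, and 38.4 and 353 CPM of *Col1a1*. Both classes thus held all 3 chains at several times their day 6 levels, and *Wt1*-high cells exceeded *Twist1*-high cells in *Col1a1* alone of the 3. At day 6 the *Wt1*-high ratio to the other kept cells was 0.727 (0.639 to 0.825) for *Col3a1*, 1.26 (1.03 to 1.52) for *Col1a2* and 1.57 (1.36 to 1.8) for *Col1a1*. The cells high for none of the 6 had 48.4 CPM of *Col3a1*, more than the cells high for *Wt1* alone. Another 274 cells of day 6 were high for both *Twist1* and *Wt1* and lie outside both classes. They had 102 CPM of *Col3a1*. In *Twist1*-high cells of day 6 the ratios were 3.58, 1.89 and 1.77. Against the other kept cells of day 11, the *Twist1*-high ratio was 3.47 (3.37 to 3.58) for *Col1a2*, 3.11 (3.05 to 3.17) for *Col3a1* and 2.5 (2.42 to 2.58) for *Col1a1*. The *Wt1*-high ratio was 2.66 (2.5 to 2.82) for *Col1a1*, 2.26 (2.13 to 2.4) for *Col1a2* and 1.7 (1.63 to 1.77) for *Col3a1*. The other kept cells include the 3243 cells high for none of the 6, which themselves had 516 CPM of *Col3a1*. The 114 cells of day 11 high for both *Twist1* and *Wt1* had 875 CPM.

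In the 3 remaining classes of day 11 the type I and III chains were low. *Col3a1* stood at 24.1 CPM in *Cdh5*-high, 18.6 CPM in *Sox2*-high and 41.8 CPM in *Myl7*-high cells, below the 61.1 CPM of the *Tyrobp*-positive cells. Read as shares of cells thinned to 5000 UMIs each, 89.9% (88.5 to 91.3) of *Twist1*-high and 85.8% (81.1 to 89.8) of *Wt1*-high cells had a *Col3a1* UMI. The share was 5.39% in *Cdh5*-high, 5.08% in *Sox2*-high and 7.38% in *Myl7*-high cells, against 12.3% (5.08 to 23.7) in *Tyrobp*-positive cells. Without thinning, where median depths were 11096 UMIs in *Twist1*-high, 18815.5 in *Cdh5*-high and 26548 in *Tyrobp*-positive cells, the shares were 95.1%, 20.5% and 18%. Thinning left out 13 of 1859 *Twist1*-high, 13 of 254 *Cdh5*-high and 4 of 61 *Tyrobp*-positive cells. As these levels and shares lay below those of the *Tyrobp*-positive cells, no expression of *Col3a1* is read from them. They do not show that it is absent, since most *Tyrobp*-positive cells had no *Col3a1* UMI. The gauge was not even across genes: *Tyrobp*-positive cells held *Col3a1* at 14.9% of its level in all kept cells, but *Myl7* at 2.88%, the cardiac actin *Actc1* at 2.43% and the neural lipid carrier *Fabp7* at 0.477%. *Col3a1* was at 5.85% of that level in *Cdh5*-high, 4.51% in *Sox2*-high and 10.2% in *Myl7*-high cells, while *Myl7* was at 1.01% to 1.41% in the classes other than its own. These percentages thus differed between genes, and the *Col3a1* UMIs of *Tyrobp*-positive cells lay in 18% of them before thinning. How much of the *Col3a1* in any of these sets is carried-over RNA was not tested. *Col1a2* was at 2.6, 5.11 and 9.35 CPM in these classes, below the 14.8 CPM of *Tyrobp*-positive cells. *Col1a1* differed from both: against 5.55 CPM (2.54 to 10.5) in *Tyrobp*-positive cells it was at 6.34 CPM in *Cdh5*-high and 4.67 CPM in *Sox2*-high cells, within that interval, but at 18.8 CPM (17.2 to 20.6) in *Myl7*-high cells, above it. Of thinned *Myl7*-high cells 4.86% (3.67 to 6.29) had a *Col1a1* UMI, against 1.75% (0.0444 to 9.39) of *Tyrobp*-positive cells, and these intervals overlapped.

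The 300 bases around the start of 2 of these chains, 250 before and 50 after it, are shown from the RefSeq promoter table (GRCm38.p6), because both chains were higher on the same days and lie on different chromosomes. Capitals mark a TATAAA in *Col3a1* (chr1:45311288-45311587, forward strand) and the 2 CCAAT matches, 1 of them on the opposite strand, in *Col1a2* (chr6:4505368-4505667, forward strand).
Col3a1: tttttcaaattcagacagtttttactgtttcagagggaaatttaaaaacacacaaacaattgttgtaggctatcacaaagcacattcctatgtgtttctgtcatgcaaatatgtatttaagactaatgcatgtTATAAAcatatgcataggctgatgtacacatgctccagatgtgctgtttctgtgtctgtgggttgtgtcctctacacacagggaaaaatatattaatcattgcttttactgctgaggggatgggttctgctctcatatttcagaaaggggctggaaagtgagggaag
Col1a2: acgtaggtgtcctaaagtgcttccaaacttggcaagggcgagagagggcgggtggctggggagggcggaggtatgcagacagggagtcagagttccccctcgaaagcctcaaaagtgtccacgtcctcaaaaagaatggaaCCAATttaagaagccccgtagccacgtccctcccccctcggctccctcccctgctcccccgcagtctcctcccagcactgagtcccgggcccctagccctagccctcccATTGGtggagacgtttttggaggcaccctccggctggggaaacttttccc
CCAAT was found on either strand in 37.4% of 32851 windows and in 13 of 38 windows of collagen chains, and TATAAA in 13.6% of all windows and in 5 of the 38. The windows of *Col3a1* and *Col1a2* shared neither motif. Nothing about the factors that bind these letters can be drawn from a match.

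The ratio of the type I chains changed over the days. *Col1a1* gave 1.54 (1.47 to 1.62) UMIs per *Col1a2* UMI in all kept cells at day 6 and 0.882 (0.863 to 0.901) at day 11. Type I collagen is a heterotrimer with more alpha 1 than alpha 2 chain. The ratios here are of RNA, and the chains in the protein were not measured. At day 11 the UMI ratio was 0.732 (0.708 to 0.756) in *Twist1*-high cells and 1.02 (0.944 to 1.11) in *Wt1*-high cells, with intervals that did not overlap. It was 0.999 in cells high for none of the 6. In thinned *Twist1*-high cells of day 11, 40.5% had UMIs of both chains, and of the cells with a *Col1a2* UMI 93.6% also had 1 of *Col3a1*.

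Of the chains of types V and XI, which nucleate fibrils, *Col5a1* stood above the type I and III chains at days 4 and 5 and *Col5a2* below them. *Col5a1* was present from the start, with 6.1, 8.24, 26.3 and 50.8 CPM on the 4 days, whereas its partner *Col5a2* had 0.276, 0.111, 5.64 and 42.4 CPM. The number of *Col5a1* UMIs per *Col5a2* UMI went from 22.1 (16.8 to 29.7) at day 4 to 4.66 (4.32 to 5.02) at day 6 and 1.2 (1.15 to 1.24) at day 11. *Col5a2* lies close to *Col3a1* on chromosome 1, at chr1:45374321-45503282 on the reverse strand. *Cdh5*-high cells differed from the rest in this pair, with 0.733 *Col5a1* UMIs per *Col5a2* UMI at day 6 and 0.319 (0.239 to 0.421) at day 11. Their *Col5a2* level of 34.6 CPM (30.1 to 39.6) at day 11 was 0.808 (0.701 to 0.927) of that of the other kept cells, and 14.1% (9.97 to 19.2) of thinned *Cdh5*-high cells had a UMI of it, against 0 of 57 *Tyrobp*-positive cells, which allows up to 5.26%. The share of *Cdh5*-high cells with *Col5a2* was thus above that of *Tyrobp*-positive cells, while their share with *Col3a1* was below it. What part of either chain is carried-over RNA was not tested. *Col11a1* had 2.56, 3.47, 12.1 and 23.3 CPM, and it was 2.89-fold (2.67 to 3.12) higher in *Twist1*-high than in the other kept cells at day 11.

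Type II collagen and its partners of cartilage fibrils, *Col9a1*, *Col9a2* and *Col9a3*, were led by different classes on different days. *Col2a1* had 3.91, 3.39, 14.5 and 13.2 CPM in all kept cells. It was the leading collagen of *Sox2*-high cells at day 6, at 48.7 CPM (45 to 52.6) and 4.33-fold (3.94 to 4.75) over the other kept cells, and stayed at 42.2 CPM (38.1 to 46.7) in them at day 11. In *Wt1*-high cells it was at 32.2 CPM (27.6 to 37.2) at day 6 and at 0.29 CPM (0.00734 to 1.62) at day 11, a value that rests on 1 UMI. In *Twist1*-high cells the order was the reverse, 6.36 CPM at day 6 and 17.4 CPM at day 11. *Col9a1* had 6.64, 1.78, 33.2 and 9.32 CPM, with its highest levels in single classes at day 6 in *Wt1*-high cells (58.4 CPM) and *Twist1*-high cells (47.6 CPM). At day 11 it was 4.06 CPM in the former and 25.8 CPM in the latter, which was 5.14-fold (4.54 to 5.82) over the other kept cells. *Col9a2* had 0.536, 4.78, 6.65 and 5.84 CPM and *Col9a3* 2.87, 5.62, 1.87 and 3.41 CPM. The 3 type IX chains did not follow each other: *Col9a1* gave 12.4, 0.372, 5 and 1.6 UMIs per *Col9a2* UMI on the 4 days.

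*Sox9* is the transcription factor that drives cartilage genes. In *Twist1*-high cells of day 11, the 579 cells with a *Sox9* UMI had 29.6 CPM of *Col2a1* against 11.0 CPM in the 1280 cells without, a ratio of 2.70 (2.21 to 3.31), at median depths of 11958 and 10590.5 UMIs. The ratio was 2.80 for *Col9a1*, 1.51 (1.18 to 1.93) for *Col9a2* and 3.80 for *Col9a3*, and 1.10 (0.973 to 1.24) for *Col11a1*. Cells of that day high for none of the 6 had larger ratios, 4.91 (3.98 to 6.06) for *Col2a1*, 5.81 for *Col9a1*, 2.32 for *Col9a2* and 6.81 for *Col9a3*. Their ratio for *Col11a1* was 1.57 (1.37 to 1.80). In *Sox2*-high cells of the same day the ratio was 1.01 (0.798 to 1.29) for *Col2a1*. At day 6 the cartilage chains parted within *Twist1*-high cells, with 2.02 for *Col2a1* and 2.29 for *Col9a3*, against 0.566 (0.520 to 0.616) for *Col9a1* and 0.567 for *Col9a2*. The last fibrillar chain over 5 CPM, *Col27a1*, had 6.17 CPM at day 4, where it was almost level with *Col5a1* and no fibrillar chain was higher. *Col27a1* had 4.18, 3.07 and 6.94 CPM on the later days, and was at 13.1 CPM in *Twist1*-high cells of day 11.

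Basement membrane chains were the main collagens of the early gastruloids and of *Cdh5*-high cells. In all kept cells *Col4a1* (ENSMUSG00000031502), which forms the most common type IV network with *Col4a2*, had 47.2 CPM (46.3 to 48.2), 45.9 CPM (45 to 46.9), 74.1 CPM (72.7 to 75.5) and 123 CPM (121 to 125) on the 4 days. *Col4a2* had 19.1, 29.1, 35.6 and 68.1 CPM. *Col18a1*, whose C-terminal fragment is endostatin, had 32.6 CPM (31.7 to 33.4), 78.5 CPM (77.2 to 79.7), 114 CPM (112 to 115) and 59.9 CPM (58.5 to 61.3). Both type IV chains were higher on the last day, by 1.66 (1.62 to 1.7) for *Col4a1* and 1.91 (1.85 to 1.98) for *Col4a2* over day 6. *Col18a1* went the other way after day 6, at 0.527 (0.512 to 0.542) of its day 6 level, and within the classes the ratio was 0.389 in *Twist1*-high, 0.42 in *Sox2*-high, 0.54 in *Cdh5*-high and 0.794 (0.718 to 0.879) in *Myl7*-high cells. The class of cells high for *Wt1* alone went against the others, with 40.1 CPM of *Col18a1* at day 6 and 63.2 CPM at day 11, 1.58-fold (1.3 to 1.91) higher. It held 226 cells at day 6. The 274 cells of that day high for both *Twist1* and *Wt1*, which are outside it, had 83.7 CPM of *Col18a1*. In *Wt1*-high cells *Col4a1* was at 40.6 CPM and *Col4a2* at 25.5 CPM at day 6, and at 91.9 and 51 CPM at day 11.

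At days 4 and 5 *Epcam*-high cells led. Their basement membrane chains summed to 206 CPM and 239 CPM (234 to 245), which was 2.24-fold (2.17 to 2.32) and 1.69-fold (1.65 to 1.74) over the other kept cells. *Col4a1* was at 111 and 97 CPM in them against 38.3 and 36.4 CPM in the other kept cells, and *Col4a2* at 45.9 and 55.2 CPM against 15.4 and 24.2 CPM. *Col18a1* was at 44.9 and 83.9 CPM in them. Besides this pair, *Col9a3* was 6.06-fold (5.11 to 7.19) and 3.6-fold (3.18 to 4.06) higher in *Epcam*-high cells on the 2 days. The count of chains at least 2-fold higher than in the other kept cells was 3 of 12 at day 4 (5.81% of all genes) and 4 of 10 at day 5 (5.22% of all genes), the fourth being *Col2a1* at 8.6 CPM. On the same days 6 of 12 (3.24% of all genes) and 4 of 10 (2.23% of all genes) were at least 2-fold lower. *Sox2*-high cells of these days, with their pluripotency markers, carried little type IV collagen (15.1 and 6.14 CPM of *Col4a1*) and were led by *Col18a1* at 45.3 and 78 CPM, with *Col13a1* at 10.5 and 7.22 CPM. Outside both classes, 231 and 160 cells were high for both *Epcam* and *Sox2*. They had 21.6 and 14.7 CPM of *Col4a1* and 69.7 and 96.4 CPM of *Col18a1*. At day 6 *Epcam*-high cells kept 147 CPM of *Col4a1* and 278 CPM of basement membrane chains in sum. At day 11 31 cells were high for *Epcam* alone, and the 52 kept cells high for *Epcam* with or without another key gene, a set formed after the data were seen, had 102 CPM of *Col4a1* (84.9 to 122) and 99.7 CPM of *Col3a1* (82.6 to 119).

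The 3 highest chains of a class show how its collagens were made up before day 11. *Twist1*-high cells had 39.1 CPM of *Col18a1*, 37.2 CPM of *Col4a1* and 14.1 CPM of *Col23a1* at day 4, and 85.7 CPM of *Col18a1*, 33.2 CPM of *Col4a1* and 22.5 CPM of *Col4a2* at day 5. At day 6 they were led by *Col3a1*, followed by *Col18a1* at 93.2 CPM and *Col26a1* at 62.1 CPM, so that a fibrillar chain came first in this class for the first time on that day. The leading chains of *Epcam*-high cells at day 6 were *Col4a1*, *Col18a1* at 63.7 CPM and *Col4a2* at 54.5 CPM. Those of *Sox2*-high cells were *Col2a1*, *Col18a1* at 44.7 CPM and *Col11a1* at 11.9 CPM. *Myl7*-high cells were led by *Col18a1* at 75.3 CPM, *Col5a1* at 46.8 CPM and *Col4a1* at 43.8 CPM.

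From day 6 the highest basement membrane levels were in *Cdh5*-high cells. The sum was 1134 CPM (1115 to 1153) at day 6 and 1285 CPM (1257 to 1313) at day 11, or 91.1% and 81.9% of their collagen UMIs. Against the other kept cells this was 6.84-fold (6.69 to 6.98) and 5.63-fold (5.49 to 5.78). *Col4a1* reached 389 CPM (378 to 401) and 669 CPM (649 to 689.9), *Col4a2* 196 CPM (188 to 204) and 332 CPM (318 to 347), and *Col18a1* 502 CPM (489 to 514) and 271 CPM (258 to 284). The leading chain thus passed from *Col18a1* at day 6 to *Col4a1* at day 11, with ratios of day 11 to day 6 of 1.72 (1.65 to 1.79) for *Col4a1*, 1.7 (1.6 to 1.8) for *Col4a2* and 0.54 (0.512 to 0.571) for *Col18a1*. Over the other kept cells of day 11 the 3 chains were 7.3-fold (7.04 to 7.57), 6.28-fold (5.97 to 6.61) and 5.68-fold (5.37 to 6) higher. A *Col4a1* UMI was found in 84.6% (79.5 to 89) of thinned *Cdh5*-high cells of day 11 (95.7% unthinned), against 8.77% of *Tyrobp*-positive cells (8.2% unthinned). The 58 cells high for both *Wt1* and *Cdh5*, which carried 9 of 9 endothelial markers, had 819.8 CPM of *Col4a1*, 378 CPM of *Col4a2* and 294 CPM of *Col18a1*.

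The fourth basement membrane chain of *Cdh5*-high cells was *Col15a1*, a proteoglycan close to type XVIII. It had 36.8 CPM (33.4 to 40.4) at day 6 against 0.254 CPM in the other kept cells, a ratio of 145 (103 to 211), which was 70.7 when doublets were left in and 23.5 with the looser limit of a high cell. At day 11 it was at 8.46 CPM (6.32 to 11.1), or 10.8-fold (7.48 to 15.4) over the other kept cells (5.65 with the looser limit). The transmembrane chain *Col23a1* was also higher in *Cdh5*-high cells, 47.6 CPM against 11 CPM at day 6 and 58.5 CPM against 22.4 CPM at day 11. These 5 chains were the only ones of 20 tested at day 6 (10.5% of all genes) and of 27 at day 11 (8.97% of all genes) that were at least 2-fold higher than in the other kept cells. Another 17 of the 27 were at least 2-fold lower at day 11 (16.5% of all genes), and the median log2 fold change of the chains was -2.46 against -0.18 over all genes. Fibrillar chains summed to 28.1 CPM (25.2 to 31.3) at day 6 and 85 CPM (77.9 to 92.7) at day 11. The latter, of which *Col5a2* gave 34.6 CPM, was close to the 91.9 CPM of *Tyrobp*-positive cells, and its ratio to the other kept cells was 0.0955 (0.153 with doublets left in).

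**Figure D3:**
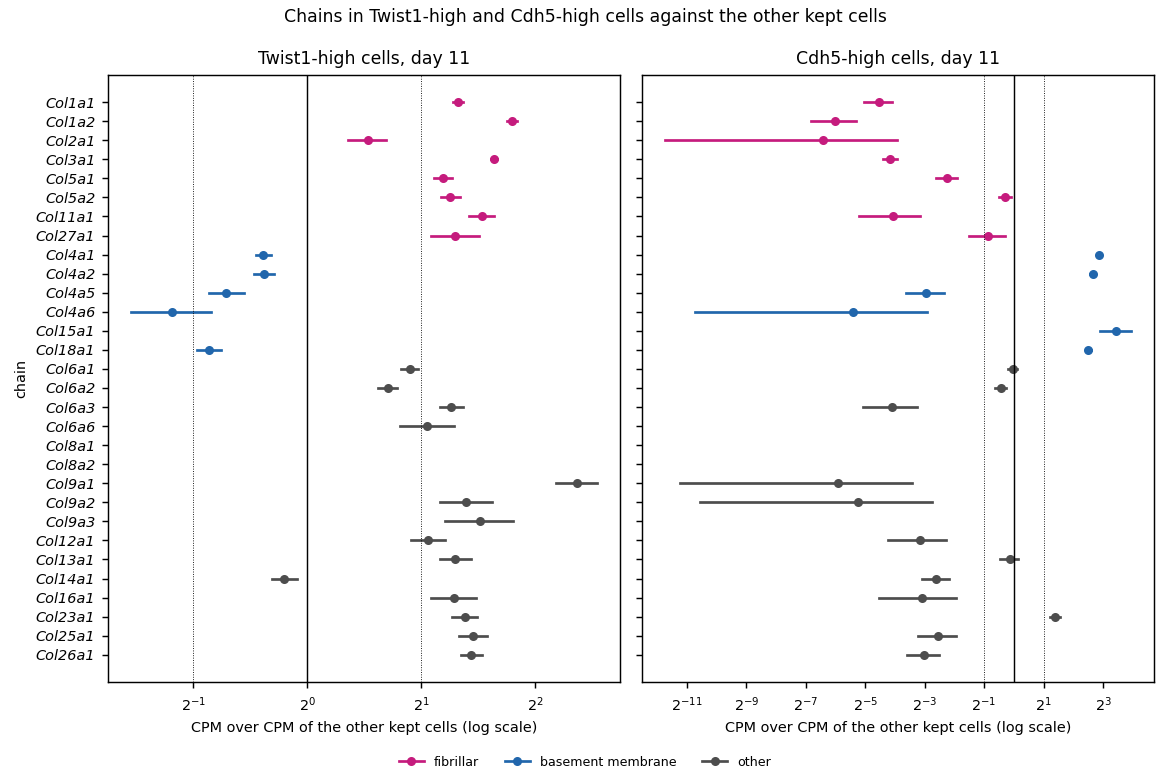
Ratio of the CPM in *Twist1*-high cells and in *Cdh5*-high cells to that in the other kept cells of day 11 (log2 axis), 1 point per chain with its 95% interval, and dotted lines at 2-fold. *Col9a1* (5.14), *Col1a2* (3.47) and *Col3a1* (3.11) lie to the right in *Twist1*-high cells, and in *Cdh5*-high cells *Col15a1*, *Col4a1*, *Col4a2*, *Col18a1* and *Col23a1* stand apart from chains that lie to the left of 1.

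Between day 6 and day 11, 7 of 15 chains were at least 2-fold higher in *Cdh5*-high cells (5.01% of all genes). They were *Col1a1*, *Col3a1*, *Col5a2*, *Col6a1*, *Col6a2*, *Col13a1* and *Col14a1*. Of these *Col3a1*, at 24.1 CPM, was below the *Tyrobp*-positive cells and *Col1a1*, at 6.34 CPM, within their interval. *Col13a1* had 2.57 and 15.6 CPM and *Col14a1* 1.16 and 6.83 CPM. The largest ratios were those of the beaded filament chains *Col6a1* and *Col6a2*. *Col6a1* had 0.747 CPM (0.342 to 1.42), from 9 UMIs, at day 6 and 64.1 CPM (57.9 to 70.7) at day 11, a ratio of 85.7 (44.7 to 189), and *Col6a2* had 0.747 and 38.4 CPM. At day 11 20.7% (15.8 to 26.4) of thinned *Cdh5*-high cells had a *Col6a1* UMI, against 3.51% (0.428 to 12.1) of *Tyrobp*-positive cells, whose level was 9.25 CPM.

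The start sites of *Col4a1* and *Col4a2* lie 21 bases apart on opposite strands, and both had their highest levels in the same cells. Both windows are shown from the RefSeq table (GRCm38.p6), *Col4a1* at chr8:11312777-11313076 on the reverse strand and *Col4a2* at chr8:11312555-11312854 on the forward strand, each read in the direction of its own gene. Capitals mark CCAAT, or ATTGG where it lies on the opposite strand.
Col4a1: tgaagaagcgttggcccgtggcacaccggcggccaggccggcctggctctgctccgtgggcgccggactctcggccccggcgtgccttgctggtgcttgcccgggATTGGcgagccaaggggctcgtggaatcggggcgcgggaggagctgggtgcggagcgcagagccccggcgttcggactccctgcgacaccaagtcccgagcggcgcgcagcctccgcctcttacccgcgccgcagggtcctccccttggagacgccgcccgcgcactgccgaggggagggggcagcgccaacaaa
Col4a2: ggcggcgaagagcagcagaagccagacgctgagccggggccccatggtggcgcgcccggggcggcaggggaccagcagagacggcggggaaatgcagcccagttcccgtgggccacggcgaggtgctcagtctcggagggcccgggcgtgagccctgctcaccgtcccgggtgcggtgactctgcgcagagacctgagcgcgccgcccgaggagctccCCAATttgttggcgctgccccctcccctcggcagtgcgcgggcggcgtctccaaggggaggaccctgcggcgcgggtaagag
Each window holds 1 match, and neither holds TATAAA. *Col4a1* gave 1.99 (1.89 to 2.09) UMIs per *Col4a2* UMI in *Cdh5*-high cells at day 6 and 2.01 (1.91 to 2.12) at day 11, and 2.47, 1.58, 2.08 and 1.81 in all kept cells over the 4 days. The network holds more alpha 1 than alpha 2 chain, as type I collagen does, but the UMI ratios are of RNA and not of protein. In *Myl7*-high cells of day 11 the UMI ratio was lower, 1.19 (1.1 to 1.28). Of thinned *Cdh5*-high cells at day 11, 62.2% had UMIs of both.

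**Figure D4:**
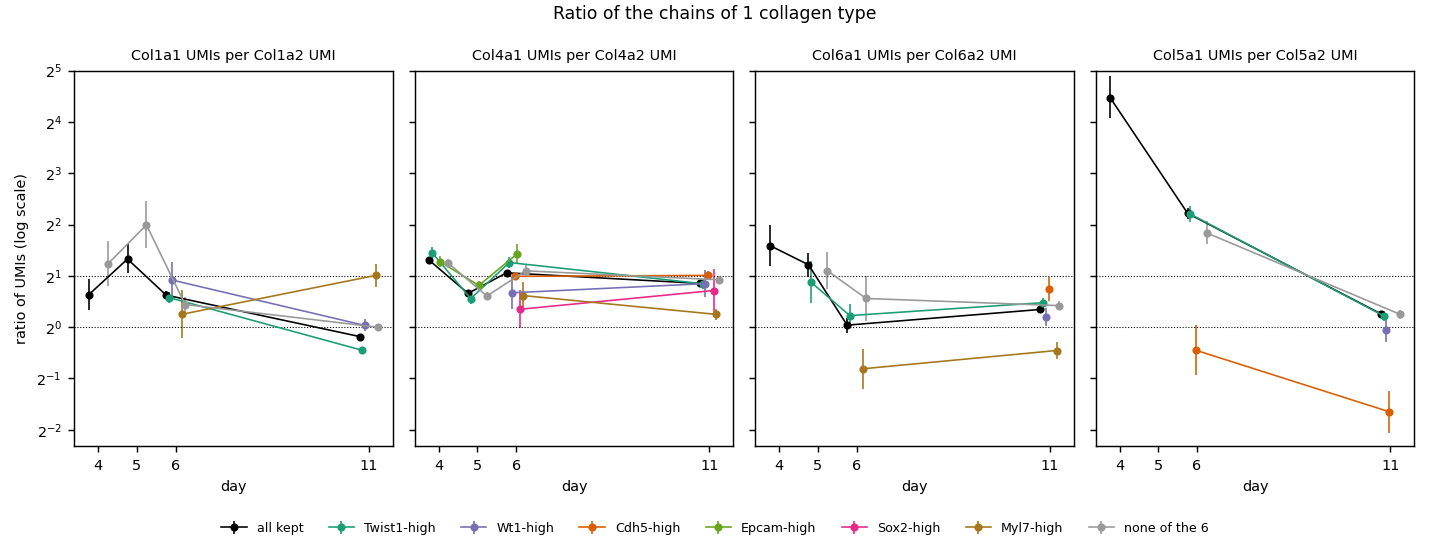
UMIs of 1 chain per UMI of its partner (log2 axis) by day, for type I, type IV, type VI and type V pairs, in all kept cells and in the cell classes, with 95% intervals as bars and dotted lines at 1 and 2. The type IV ratio of *Cdh5*-high cells stays near 2 (1.99 and 2.01), the type I ratio of *Twist1*-high cells is 1.49 at day 6 and 0.732 at day 11, and the type V ratio of all kept cells is 22.1 at day 4 and 1.2 at day 11.

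The second type IV pair on the X chromosome, *Col4a5* and *Col4a6*, starts 1343 bases apart and followed another pattern. *Col4a5* had 4.01, 1.89, 12.5 and 26.5 CPM in all kept cells and *Col4a6* 2.58, 1.13, 4.3 and 6.59 CPM. At day 11 *Myl7*-high cells had 46 CPM (43.4 to 48.8) of *Col4a5* and 12.6 CPM (11.3 to 14.1) of *Col4a6*, which was 2.2-fold (2.04 to 2.37) and 2.59-fold (2.23 to 3) over the other kept cells. *Wt1*-high cells had 47.6 CPM of *Col4a5* and *Sox2*-high cells 33 CPM, against 3.58 CPM in *Cdh5*-high cells, where the ratio to the other kept cells was 0.129 (0.0805 to 0.195). The cells with the most *Col4a1* and *Col4a2* were thus the lowest of the 5 classes in *Col4a5*. In *Myl7*-high cells *Col4a1* was at 57.5, *Col4a2* at 48.4 and *Col18a1* at 59.8 CPM, and these 3 led their collagens.

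Type VI chains, which build beaded filaments from 3 different chains, appeared mainly between day 6 and day 11. *Col6a1* had 1.13, 2.49, 5.18 and 65.3 CPM in all kept cells, *Col6a2* 0.374, 1.07, 5.04 and 51.4 CPM, and *Col6a3* 0.13, 0.136, 0.506 and 28.8 CPM. The ratio of day 11 to day 6 was 12.6 (11.7 to 13.6) for *Col6a1*, 10.2 (9.46 to 11) for *Col6a2* and 57 (45.4 to 72.5) for *Col6a3*. *Col6a3* was thus the lowest of the 3 on each day, with 9.95 *Col6a2* UMIs per *Col6a3* UMI at day 6 and 1.78 at day 11. *Wt1*-high cells were the highest single class at day 11, with 151 CPM of *Col6a1*, 132 CPM of *Col6a2* and 65.8 CPM of *Col6a3*, and ratios to the other kept cells of 2.42 (2.21 to 2.64), 2.7 (2.45 to 2.97) and 2.38 (2.07 to 2.72). At day 6 the highest level of *Col6a2* in any set was in *Myl7*-high cells, 22.6 CPM (19.2 to 26.4) or 5.39-fold (4.49 to 6.44) over the other kept cells. In that class *Col6a1* gave 0.571 (0.435 to 0.745) UMIs per *Col6a2* UMI at day 6 and 0.73 (0.653 to 0.815) at day 11, the reverse of all kept cells at day 11 (1.27). *Col6a6*, a chain that can take the place of *Col6a3*, was at 5.6 CPM in all kept cells of day 11 and 11 CPM in *Wt1*-high cells.

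Among the fibril-associated chains, *Col14a1* was highest in *Wt1*-high cells at day 6 and in *Sox2*-high cells at day 11, of the classes high for 1 key gene. All kept cells had 5.75, 7.65, 8.82 and 40.2 CPM of it. *Wt1*-high cells had 20.5 CPM (16.9 to 24.6) at day 6, 2.45-fold (2 to 2.97) over the other kept cells, and 71.9 CPM (63.2 to 81.4) at day 11, 1.83-fold (1.61 to 2.08). In *Sox2*-high cells it went from 6.31 CPM (5.02 to 7.83) at day 6 to 115 CPM (109 to 123) at day 11, 18.3-fold (14.6 to 23.2), and at day 11 it was 3.42-fold (3.19 to 3.67) over the other kept cells (2.20 with the looser limit of a high cell and 6.36 with overlapping classes). The 81 cells high for *Sox2* and *Twist1*, which held 7 of 7 neural markers, had 516 CPM (480.3 to 555), the highest level of the chain in any set, with 278 CPM of *Col3a1* and 173 CPM of *Col2a1*. A *Col14a1* UMI was found in 22% (18.6 to 25.7) of thinned *Sox2*-high cells and in 0 of 1111 *Myl7*-high cells, which allows up to 0.27%. The 10% of *Sox2*-high cells with the most *Col14a1* held 72.7% of its UMIs, against 30.8% for *Col3a1* in *Twist1*-high cells. *Col14a1* in *Twist1*-high cells was 11.5 CPM at day 6 and 35.9 CPM at day 11.

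*Col12a1*, a fibril-associated chain of dense connective tissue, had 0.0364, 0.126, 0.86 and 13.9 CPM. At day 6 it was highest in *Myl7*-high cells, at 5.36 CPM (3.77 to 7.39) and 8.34-fold (5.54 to 12.3) over the other kept cells (5.47 with overlapping classes). At day 11 it was highest among the single classes in *Sox2*-high cells, at 26.4 CPM or 2.06-fold (1.78 to 2.36), with 23.7 CPM (21.8 to 25.7) in *Twist1*-high cells close behind. *Col16a1* had 0.866 and 7.85 CPM at days 6 and 11 and was at 18.3 CPM in *Wt1*-high cells of day 11.

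The transmembrane chains and *Col26a1*, a small collagen first found in reproductive tissues, differed between the mesodermal classes. *Col23a1*, *Col25a1* and *Col26a1* were low in *Myl7*-high cells. These had 2.03 and 1.51 CPM of *Col23a1* at days 6 and 11, which was 0.14 (0.0764 to 0.235) and 0.049 (0.0346 to 0.0675) of the other kept cells. They had 6.38 and 2.23 CPM of *Col26a1*, and 0.58 and 0.398 CPM of *Col25a1*. Their *Col13a1* was at 9.85 CPM at day 6, 0.971 (0.75 to 1.24) of the other kept cells. At day 11 it was at 4.65 CPM, 0.225 (0.185 to 0.272) of the other kept cells. *Col23a1* was highest in *Cdh5*-high cells among the single classes of both days. At day 4 *Col23a1* and *Col13a1* were the 2 highest chains outside the fibrillar and basement membrane classes, at 14.2 and 10.6 CPM. *Col23a1* then had 3.97, 13.9 and 24.3 CPM and *Col13a1* 6.5, 10.1 and 17.1 CPM. *Col26a1* had 6.72 and 6.68 CPM at days 4 and 5, 44.5 CPM (43.5 to 45.6) at day 6 and 36.7 CPM (35.6 to 37.8) at day 11. It was the leading chain of *Wt1*-high cells at day 6 with 73.8 CPM, and at day 11 its highest single class was *Twist1*-high at 73.3 CPM. *Col25a1* had 1.36, 0.594, 3.04 and 19.8 CPM, with 39.9 CPM in *Twist1*-high cells of day 11. The short-chain collagens stayed low, with maxima of 13.6 CPM for *Col8a1* in cells high for *Twist1* and *Sox2* and 5.51 CPM for *Col8a2* in *Wt1*-high cells.

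Counted over all chains tested, *Twist1*-high cells of day 11 had 16 of 27 chains at least 2-fold higher than the other kept cells (2.72% of all genes), and the median log2 fold change of the chains was 1.17 against 0.06 over all genes. The count fell to 10 when 10 CPM was added in place of 1 and to 7 when each cell's CPM was averaged with equal weight. At day 6 it was 1 of 20 (0.686% of all genes), *Col3a1* at 3.58 (3.43 to 3.74), and 5 with overlapping classes. The fibrillar sum of *Twist1*-high cells was 1.95-fold (1.91 to 2) that of the other kept cells at day 6 and 2.92-fold (2.89 to 2.96) at day 11. Within *Twist1*-high cells 21 of 27 chains were at least 2-fold higher at day 11 than at day 6 (9.73% of all genes), and within *Wt1*-high cells 20 of 27 (13.1% of all genes). *Wt1*-high cells of day 11 had 8 of 27 chains at least 2-fold higher than the other kept cells (2.46% of all genes), or 4 with overlapping classes. *Sox2*-high cells on both days and *Myl7*-high cells at day 11 showed the opposite count. In *Sox2*-high cells 15 of 19 chains at day 6 (11.5% of all genes) and 19 of 26 at day 11 (16.2% of all genes) were at least 2-fold lower than in the other kept cells, although 5 of 13 were at least 2-fold higher at day 11 than at day 6 (9.35% of all genes). In *Myl7*-high cells 21 of 26 were lower than in the other kept cells at day 11 (18.8% of all genes). Of 21 chains tested in them at day 6, 7 were at least 2-fold lower (10.5% of all genes) and 3 at least 2-fold higher (7.82% of all genes). Over time *Myl7*-high cells had 2 of 16 chains at least 2-fold higher (7.89% of all genes), which were *Col4a5* and *Col3a1*, the latter still below its level in *Tyrobp*-positive cells, and 4 of 16 at least 2-fold lower (6.84% of all genes), with *Col9a1* at 31.2 and 1.35 CPM and *Col5a1* at 46.8 and 12.5 CPM. Their fibrillar sum was 86.1 CPM at day 6 and 88.3 CPM at day 11, 1.03-fold (0.937 to 1.13). At day 11 RNA of *Myl7* itself stood at 42.6 to 59.3 CPM in the other 4 classes and at 121 CPM in *Tyrobp*-positive cells, against 4196 CPM in all kept cells, and the part that such RNA has in the low chain levels was not tested.

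Enzymes and partners of collagen were given by a list of 61 genes. In all kept cells 14 of the 36 tested were at least 2-fold higher at day 6 than at day 5 (12.2% of all genes), and 9 of 39 at day 11 than at day 6 (10.7% of all genes). The small leucine-rich proteoglycans, which coat fibrils, were 4 of those 9, and all 4 that were tested. *Dcn* (decorin) had 0.4 CPM at day 6 and 78.5 CPM at day 11, *Lum* (lumican) 0.526 and 44.4 CPM, and *Bgn* (biglycan) 8.98 and 54.6 CPM. The collagen chaperone *Serpinh1* (HSP47) did not follow the fibrillar chains: it had 173, 410.4, 489 and 457 CPM on the 4 days, with 0.936 (0.926 to 0.947) for day 11 over day 6. The prolyl hydroxylase subunit *P4ha1* had 95.5 and 176 CPM, and the cross-linking enzyme *Lox* 0.32 and 8.44 CPM.

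Across the classes of day 11 *Serpinh1* was at 577 CPM in *Twist1*-high, 639 in *Wt1*-high, 471 in *Cdh5*-high, 387 in *Myl7*-high and 152 in *Sox2*-high cells, against 64.8 CPM in *Tyrobp*-positive cells. The chaperone was thus as high in *Cdh5*-high cells as in the other kept cells, at a ratio of 1.03 (0.994 to 1.07). The fibrillar sums of the 2 sets were 85 and 891 CPM. Basement membrane chains summed to 1285 CPM in *Cdh5*-high cells. All their collagen summed to 1568 CPM, against 1470 CPM in all kept cells. Of the tested list genes, *Twist1*-high cells had 9 of 42 at least 2-fold higher than the other kept cells (2.72% of all genes) and *Wt1*-high cells 8 of 43 (2.46% of all genes). *Dcn* was at 125 CPM in *Twist1*-high, 214 CPM in *Wt1*-high and 2.6 CPM in *Cdh5*-high cells. Among the receptors, the tyrosine kinase receptor *Ddr2* was 4.01-fold (3.65 to 4.41) higher in *Twist1*-high cells, and the integrin subunit *Itga2*, which binds collagen with beta 1, was 32-fold (23.6 to 43.7) higher in *Cdh5*-high cells at 20.3 CPM. *Pxdn* (peroxidasin), which cross-links type IV collagen, was 2.58-fold (2.34 to 2.84) higher in *Cdh5*-high cells. *Sox2*-high cells had 24 of 40 genes at least 2-fold lower (16.2% of all genes) and *Myl7*-high cells 16 of 41 (18.8% of all genes).

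The genes most like the highest chain of each collagen class were found by Pearson's r of log2(CPM + 1) over 21 sets of cells, which share libraries and depth and are given as a description. For *Col3a1* they were *Dnm3os* (0.97), the periostin gene *Postn* (0.96), *Tmem45a* (0.96), *Col1a1* (0.95) and *B130024G19Rik* (0.95). For *Col4a1* they were *Col4a2* (0.98), *Triobp* (0.91), *Rin3* (0.91), *Elovl1* (0.90) and *Lamb1* (0.89), of which the last is a laminin chain of basement membranes. For *Col6a1* they were *Col6a2* (0.98), *Sra1* (0.93), *Rab18* (0.92), *Syap1* (0.92) and the prolyl hydroxylase subunit *P4ha2* (0.92).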

How the data were processed

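Single-cell libraries were made with the 10x Chromium 3' v3.1 kit, 1 per day. The deposited values are UMI counts per gene and cell, which the authors made with Cell Ranger on mm10 (version 3.1.0 in the processing notes and the file headers of days 4 to 6, and 6.0.1 in the header of day 11), and the annotation is not given in the sources used here. Whether the change of version enters day 11 against day 6 cannot be told apart from day. The study's methods name a minimum of over 200 genes per cell and limits on mitochondrial, ribosomal and total UMIs set by hand for each library. Here cells with over 200 genes were kept, and the other limits were chosen anew and alike for all libraries: under 20% mitochondrial and over 5% ribosomal UMIs, and a UMI total (log10) no more than 3 scaled median absolute deviations from the median. The 8% of cells with the highest doublet scores (30 components of 2000 variable genes, 2 simulated doublets per cell, 20 neighbours) were then removed per library. The 20 neighbours were set after the first run's cell-set sizes and collagen values were seen, since a wider neighbourhood removed 42 of 73 Epcam-high cells at day 11 against 21.

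UMIs were summed per set of cells and divided by all UMIs of the set to give CPM. Levels carry exact Poisson intervals, ratios exact conditional binomial intervals and shares Clopper-Pearson intervals, all at 95%. They cover counting error only, and a count of 0 allows up to 3 counts. Shares were read after each cell was thinned to 5000 UMIs. No statistical test was run. The code that counts folds was checked on simulated counts. By the rule for named genes, every chain with at least 5 CPM in a set is given a value, and the 3 highest chains of each collagen class on each day and the 3 highest of each cell class are given in full. The members and gene lists were chosen with earlier results of these data known. Alternatives changed the cell limits, the doublet step, the limits of a high cell, the class rule, the denominator, the added CPM and the thinning depth. Glycine repeats were read from codons of GENCODE vM21 transcripts. Promoters came from RefSeq, where 35 of the 44 chains had a window, and those of Col1a1, Col2a1, Col5a2 and Col14a1 among others are not shown. Python 3.11.15, numpy 2.4.6, scipy 1.17.1, pandas 2.3.3, scikit-learn 1.9.0 and matplotlib 3.10.9 were used.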

Additional observations from a re-analysis of the deposited data

Results flagged for a closer look

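Several chains moved in opposite directions in different cell classes or on different days. With 1 library per day these differences were not tested. *Col2a1*, the chain of cartilage fibrils, was 2.33-fold higher in *Wt1*-high than in the other kept cells at day 6 and at 0.0214 of their level at day 11. Over the same days it was 2.73-fold higher in *Twist1*-high cells and at 0.00902 of its day 6 level in *Wt1*-high cells, where the day 11 value rests on 1 UMI. The day 6 ratio in *Wt1*-high cells was 1.35 with overlapping classes.

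Among the chains of *Myl7*-high cells, *Col6a1* was 2.68-fold higher than in the other kept cells at day 6 and at 0.286 of their level at day 11. *Col12a1* was 8.34-fold higher at day 6 and at 0.278 at day 11. *Col5a1*, which nucleates fibrils, was 2.51-fold higher at day 11 than at day 6 in *Twist1*-high and 3.06-fold higher in *Wt1*-high cells, and at 0.266 of its day 6 level in *Myl7*-high cells. The basement membrane chain *Col4a5* was 4.41-fold higher at day 11 in *Wt1*-high, 3.43-fold in *Sox2*-high and 2.21-fold in *Myl7*-high cells, and at 0.418 of its day 6 level in *Cdh5*-high cells.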

How the results depend on the processing

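With 1 library per day, day is not separable from library, and depth at day 11 was under that of the other days. The limit of a high cell is set in UMIs and therefore shifts with depth. The sums over all kept cells hold every class, so cell makeup and level per cell cannot be told apart in them. No paired analysis was possible because each day is a single library.

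The fibrillar ratio of day 11 to day 6 over all kept cells, 5.14, was 4.82 with every deposited cell of over 200 genes, 5.26 with doublets left in, 5.67 as a mean over cells and 5.23 with the wider doublet neighbourhood, an alternative chosen after seeing the data. The fibrillar ratio of *Twist1*-high cells at day 11, 2.92, was 3.01, 2.75, 2.27 and 2.86 under these, 2.53 with the stricter limit of a high cell and 2.76 with overlapping classes. The basement membrane ratio of *Cdh5*-high cells at day 11, 5.63, was 5.12 with every cell, 5.38 with doublets left in, 6.75 as a mean over cells, 6.44 with the stricter limit, 4.54 with the looser limit and 6.25 with overlapping classes. The 16 chains at least 2-fold higher in *Twist1*-high cells became 10 with 10 CPM added and 7 as a mean over cells. The 89.9% of *Twist1*-high cells with a *Col3a1* UMI became 82.4% at 3000 UMIs and 94.1% at 10000 UMIs.

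A reversal was counted only for values at least 2-fold higher or lower in the main setting. Values within 2-fold that crossed 1 were not counted as reversed. By this rule no class sum reversed in 248 alternative values, and 119 moved beyond their counting interval. Of 2174 values of single chains, 546 moved beyond it and 1 reversed: *Col13a1* in *Wt1*-high cells of day 6, 0.452 of the other kept cells, was 1.02 with overlapping classes. Of 1546 chain values past 2-fold, 260 moved by over 1.5 times, 70 with every cell and 63 with doublets left in.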
